A study of Homo sapiens with 8 samples.

Results

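In ST486 cells 188 of 14453 array probes (1.3%) measured transcripts that were at least 8-fold enriched in the Ago2 immunoprecipitate, both in cells with the empty vector and in cells with ectopic miR-155. These probes named 143 of the 7928 genes with a symbol (1.8%), and they included CD69, BTG2, CFL2, DNAJB9, CCNE1, CDKN1B, SOCS1 and DICER1. The members were chosen on the deposited log2 signals themselves: for each vector the mean of the Cy3 and Cy5 signals of the total (T) fraction was subtracted from the mean of the immunoprecipitated (IP) fraction, and a log2 IP/T ratio of at least 3 was required in both. Their enrichment is therefore the rule and not a result, and all values below that come from the same signals are a description without a test. At least 8-fold enrichment in a single vector was found for 239 probes in EV-ST486 cells (1.65%) and for 226 in miR-155-ST486 cells (1.56%), so the members were 78.7% and 83.2% of these.

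The line ST486 derives from Burkitt lymphoma, a lymphoma of germinal centre B cells. The cells were transduced either with the empty MXW-PGK-IRES-GFP vector (EV-ST486, or EV cells) or with the same retroviral vector carrying miR-155 (miR-155-ST486, or miR-155 cells), and GFP+ cells were sorted, so transduction, GFP and sorting were shared by both groups. RNA of the total fraction and RNA pulled down with the Ago2 antibody was available as 1 sample per vector, 4 in total. Every RNA was labelled with either dye, Cy3 and Cy5, and the IP and T RNA of a vector were hybridized together on 2-colour arrays with the dyes both ways round, which makes 4 arrays and 8 channels. The labellings are technical repeats. With n = 1 per condition the difference between them shows the error of labelling and hybridization only, and no test of a condition is possible.

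Ago2 (argonaute 2) is the protein that carries a miRNA and brings it to matching sites in mRNAs, mostly through bases 2 to 8 of the miRNA, the seed. The bound mRNA is then translated less and often degraded sooner. Precipitating Ago2 from a lysate and hybridizing the RNA that comes with it to arrays (Ago2-RIP-Chip) therefore measures, for every transcript, how much more of it lies in the Ago2 fraction than in the cells as a whole, without telling which miRNA brought it there. MiRNA levels were not measured on these arrays. The mature miRNAs whose published targets are followed below are printed here from RefSeq (GRCh38.p14), because their seeds are what groups the target lists, with the seed in capitals.
hsa-miR-17-5p: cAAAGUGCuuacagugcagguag
hsa-miR-20a-5p: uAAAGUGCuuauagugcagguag
hsa-miR-106b-5p: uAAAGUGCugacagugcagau
hsa-miR-93-5p: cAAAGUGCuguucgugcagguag
hsa-let-7a-5p: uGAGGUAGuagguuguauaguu
hsa-miR-15a-5p: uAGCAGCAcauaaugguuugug
hsa-miR-16-5p: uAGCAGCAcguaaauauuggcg
hsa-miR-181a-5p: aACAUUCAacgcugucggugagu
hsa-miR-155-5p: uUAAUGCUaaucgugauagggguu
The miR-17, miR-20a, miR-106b and miR-93 sequences share the seed AAAGUGC, and miR-15a and miR-16 share AGCAGCA. The seeds GAGGUAG of let-7, ACAUUCA of miR-181a and UAAUGCU of miR-155 are each different from these. The mature miR-155, the miRNA that the vector supplies, lies in the genome at chr21:25573983-25574006 on the plus strand.

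The share of the 41000 probes that the scanner flagged as well above background, positive and significant (called detected here) ranged from 34.4% to 54.1% over the 8 channels. Arrays of EV-ST486 and of miR-155-ST486 cells lay on different slides, with 0 of 2 slides holding both, so slide and vector cannot be told apart, whereas IP and T of one vector shared their arrays. Of the B cell markers, CD79A, CD79B, MS4A1, CD22, MME and CD38 were detected in all 4 labellings of the total fraction, EBF1 in 3 and PAX5 in 0, and the 4 T cell markers were detected in 0. Of 4 myeloid markers CD14 was detected in 3 labellings and the others in 0. Arrays of a control precipitation were not analysed here, so RNA that binds beads or antibody was not measured.

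The rule sets a floor of 8-fold in both vectors, and above it the median IP/T ratio of the members was 12.9 in EV-ST486 cells, with log2 values from 3.03 to 5.86, and 11.8 in miR-155-ST486 cells, with log2 values from 3.01 to 5.87, whereas the median log2 IP/T over all probes was -0.16 and -0.18. At least 16-fold enrichment in both vectors was seen for 45 members and at least 32-fold for 8, which were CD69, GPR137B, CFL2, NHLRC3, DNAJB9, BTG2, FAM222B and CCNJ. In each of the 188 members all 4 IP channels were above all 4 total channels, with a smallest gap of 1.86 on the log2 scale. Within a vector this order of the channels follows from the rule, because probes whose labellings differed over 2-fold had been removed. Taken in each dye orientation alone, 141 members (75%) stayed at 8-fold or more in both orientations of both vectors. Any probe that does so is a member by the rule, so these 141 are also the 0.976% of all probes that did. The ratios of the orientations differed by a median of 0.42 (log2) in EV cells and 0.30 in miR-155 cells. The size of the ratios depended on how background was treated: with the normexp correction in its 4 settings between 19 and 67 probes reached 8-fold in both vectors and the median ratio of the 188 lay between 1.76 and 6.42 in EV cells and between 2.54 and 7.60 in miR-155 cells, and was 1.76 and 3.43 with loess and Aquantile normalization and all backgrounds as measured, although all 188 stayed above 1 in both vectors in all 4 settings.

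**Figure D1:**
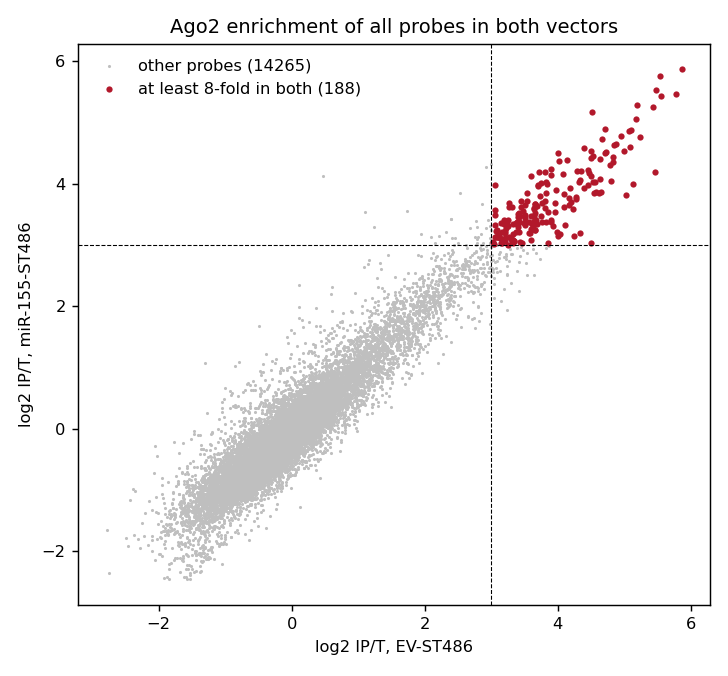
Log2 IP/T ratio of every probe in EV-ST486 cells (x axis) and in miR-155-ST486 cells (y axis), means of the Cy3 and Cy5 labellings, with the 188 probes at or above 8-fold in both vectors in red and the dashed lines at log2 3. The red points are the upper end of 1 continuous cloud and reach 5.86 and 5.87 for CD69.

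CD69, an early activation antigen of lymphocytes that holds them in lymphoid tissue, had the highest mean ratio of all probes. Its log2 total signals were 7.89 in Cy3 and 8.23 in Cy5 in EV cells and 7.48 and 8.05 in miR-155 cells, and its log2 IP signals were 13.70 and 14.14, and 13.59 and 13.68. All IP values lay far above all total values, and the ratios of 58.1 and 58.5 differed between the vectors by less than between the dye orientations, which gave 44.4 and 76.0 in EV-ST486 cells. GPR137B, a membrane protein of the lysosome, followed with log2 total signals of 7.15 and 7.37 (EV) and 6.83 and 7.07 (miR-155) against IP signals of 12.72, 12.86, 12.74 and 12.69, ratios of 46.2 and 54.3 (here and below, the first of a pair of ratios is that of EV and the other that of miR-155 cells). Its total signal in EV-ST486 cells was detected in 1 of 2 labellings.

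Cofilin 2 (CFL2), which severs actin filaments, had total signals of 7.67 and 7.73 (EV) and 7.56 and 8.09 (miR-155) and IP signals of 13.18, 13.78, 13.14 and 13.45 on the log2 scale, ratios of 55.0 and 44.4. The other enriched probe of CFL2 gave 28.5 and 21.7, so both probes place the transcript among the members while their ratios differ by about 1 on the log2 scale (0.95 and 1.03). NHLRC3, a little described protein with NHL repeats, had total signals of 7.76, 7.99, 7.67 and 7.55 and IP signals of 13.52, 13.18, 13.22 and 13.07 in the order EV Cy3, EV Cy5, miR-155 Cy3 and miR-155 Cy5, ratios of 44.6 and 46.3. DNAJB9, a chaperone partner of BiP in the endoplasmic reticulum, had total signals of 10.40, 10.18, 9.96 and 10.39 and IP signals of 15.41, 16.27, 15.62 and 15.61 in the same order, ratios of 46.8 and 43.4. In these 3 genes, as in all members, no IP value overlapped a total value. The total signal of NHLRC3 in EV-ST486 cells was detected in 1 of 2 labellings.

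BTG2, an antiproliferative gene that p53 induces and whose product recruits deadenylases, had log2 total signals of 10.21, 10.31, 9.62 and 10.12 and IP signals of 15.57, 15.83, 15.14 and 15.12 in that order, ratios of 43.3 and 38.3. The uncharacterized gene FAM222B had 9.50, 9.80, 9.62 and 9.72 in the total fraction and 14.73, 14.94, 14.99 and 14.92 in the IP fraction, ratios of 36.3 and 38.9. For cyclin J (CCNJ) the total signals were 9.44, 9.81, 9.63 and 9.90 and the IP signals 14.58, 15.01, 14.81 and 14.86, ratios of 36.1 and 33.5. In none of these 3 genes did the vectors differ by more than the dye orientations of EV-ST486 cells. C2orf69 had total signals of 7.54, 7.50, 7.48 and 7.85 and IP signals of 12.59, 12.92, 12.48 and 12.37, and its ratios of 37.7 and 27.1 were lower in miR-155-ST486 cells in both orientations, with log2 differences of -0.46 and -0.49. Its total signal, too, was detected in 1 of 2 labellings in EV-ST486 cells. BOD1, a protein needed for chromosome biorientation, had total signals of 9.62, 9.88, 9.59 and 9.82 and IP signals of 14.81, 14.89, 14.60 and 14.58, ratios of 34.3 and 29.6.

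**Figure D2:**
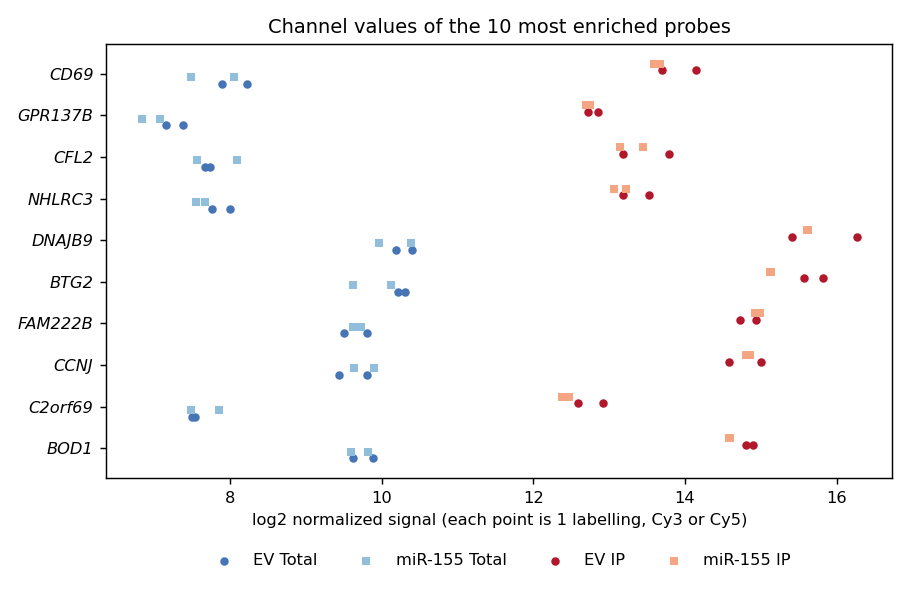
Log2 normalized signal (x axis) of the 10 probes with the highest mean IP/T ratio, with 1 point per labelling (Cy3 or Cy5), blue for the total and red or orange for the IP fraction, circles for EV-ST486 and squares for miR-155-ST486 cells. In each of the 10 genes, from CD69 to BOD1, all IP points lie to the right of all total points, as they do for all 188 members.

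Immune and cytokine signalling was represented by 14 genes on 16 probes. The median log2 IP/T of the group was 3.91 in EV cells and 3.35 in miR-155 cells. Taken probe by probe, the median difference in log2 IP/T, miR-155 minus EV, was -0.13 in the group and -0.13 over all members. SOCS1, the feedback inhibitor of JAK and STAT signalling and a published miR-155 target, was enriched on both of its probes, 22.6-fold and 23.3-fold on the brighter and 14.1-fold and 14.4-fold on the dimmer probe, without a difference between the vectors beyond that of the orientations. The brighter probe had log2 total signals between 10.78 and 11.13 and IP signals between 15.34 and 15.69. Further regulators were IRF9, a DNA-binding factor of the interferon response (24.8 and 16.95), TNFRSF12A, the receptor for TWEAK (21.8 and 18.6), the TGF-beta receptor TGFBR2 (9.47 and 9.91) and BAMBI, a decoy receptor of the same pathway (9.26 and 8.71). NFKBIZ, a nuclear IkB protein, was 23.4-fold enriched in EV-ST486 cells. In miR-155-ST486 cells both of its total labellings were below detection, and the ratio there was at least 2.53-fold.

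The cytokines oncostatin M (OSM, 10.6 and 10.3) and IL11 (16.05 and 8.88), the interferon-induced GTPase GBP3 (12.8 and 10.1 on one probe, 9.25 and 8.43 on the other), MICB, a ligand of the killer cell receptor NKG2D (12.6 and 9.46), RGS16, which shuts off G protein signalling (8.99 and 8.19), and TAGAP, a GTPase-activating protein of activated lymphocytes (20.1 and 9.21), completed the group with S1PR1. S1PR1 is the receptor through which lymphocytes sense sphingosine 1-phosphate and leave lymphoid organs, and CD69 is known to remove it from the cell surface. Its total signals were below detection in all 4 labellings, with log2 values of 4.02 and 4.05 in EV cells and 4.69 and 5.26 in miR-155 cells, whereas its IP signals of 8.67 and 8.43, and 10.21 and 10.09, were detected. The enrichment of S1PR1 can therefore only be bounded, at least 1.57-fold in EV cells and at least 4.55-fold in miR-155 cells. These bounds set the mean IP signal after normexp, loess and Aquantile normalization against the higher of the total signal and the dimmest detected signal of each array, a procedure that lowers all ratios.

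The bound was needed for 8 members in EV cells and 9 in miR-155 cells, whose total signal was below detection in both labellings. In both vectors these were S1PR1, one RAB12 probe, ZNF280A, STRIP2 and the transcripts AK002019 and AB007861. BCL11A and one NABP1 probe were added in EV cells, and NFKBIZ, the other RAB12 probe and CA437634 in miR-155 cells. The bounds lay between 1.18 for STRIP2 and 1.79 for NABP1 in EV cells and between 1.29 for STRIP2 and 4.55 for S1PR1 in miR-155 cells.

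Genes of cell cycle and growth control numbered 17 on 18 probes, with a median log2 IP/T of 3.95 and 4.01 and a median log2 total signal of 9.48 in EV-ST486 cells, above the 8.33 of all members. Cyclin E1 (CCNE1), which drives entry into S phase, was 14.9-fold and 17.6-fold enriched and its total signal was among the 5 highest of all members, at log2 13.30, 14.28, 13.51 and 13.86 (EV Cy3, EV Cy5, miR-155 Cy3, miR-155 Cy5) with IP signals of 17.62, 17.77, 17.87 and 17.79. The dye orientations gave it ratios of 10.1 and 22.1 in EV-ST486 cells. FBXW7, the ubiquitin ligase subunit that marks cyclin E for destruction, was also a member (9.27 and 9.34). CDKN1B, which encodes the inhibitor p27 of cyclin E complexes, was 16.1-fold and 22.7-fold enriched, with total signals between log2 9.18 and 10.001 and IP signals between 13.59 and 14.06.

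The transcription factors of the group were the E2F repressors E2F5 (13.99 and 13.2) and E2F7 (12.7 and 10.6), DMTF1, an activator of ARF (11.6 and 14.4), and MYBL1, a MYB family factor of germinal centre B cells (12.55 and 11.5). NABP1, a single-stranded DNA binding protein of DNA repair, was enriched on both of its probes, 22.6-fold and 21.5-fold on the probe with detected total signal. SERTAD3 (28.5 and 20.5), FAM83D, a spindle protein (17.7 and 21.1), DDIAS, an anti-apoptotic protein (19.5 and 18.5), CDCA4 (14.9 and 10.6), the candidate tumour suppressor TUSC2 (9.64 and 12.8) and the pseudokinase TRIB1 (10.04 and 9.05) were the others. BTG2, CCNJ and BOD1 from the 10 highest ratios belong here too.

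Endoplasmic reticulum and stress genes were 6: DNAJB9, HERPUD1, CHAC1, FICD, CREBRF and FKBP11. DNAJB9, HERPUD1 and CHAC1 are known targets of the unfolded protein response, and FICD controls the chaperone BiP by AMPylation. HERPUD1, a component of the machinery that degrades misfolded proteins, had total signals of 13.83, 13.71, 13.84 and 13.66 and IP signals of 17.55, 17.44, 17.57 and 17.51 (log2, in the order given above), ratios of 13.3 and 13.9. It was one of the members with both a high total signal and little difference between labellings. CHAC1, which degrades glutathione, was 16.8-fold and 17.8-fold enriched at total signals between log2 11.77 and 12.09. FICD (17.998 and 12.7), CREBRF (14.3 and 16.02) and the prolyl isomerase FKBP11 (8.27 and 11.2) had ratios less even between the vectors than HERPUD1 and CHAC1. The group had the highest median log2 total signal of the role groups in EV-ST486 cells, 11.1 over its 6 probes.

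Components of the miRNA pathway were themselves among the members. DICER1, the nuclease that cuts mature miRNAs from their precursors and a published target of let-7, had log2 total signals of 9.31, 9.22, 9.45 and 9.50 and IP signals of 12.25, 12.39, 12.69 and 12.51, ratios of 8.31 and 8.74. Its other probe gave 5.99 and 6.36, below the threshold. TNRC6A, the GW182 protein that links Ago2 to the deadenylases, was 12.04-fold and 9.65-fold enriched at total signals between 7.68 and 8.24. Of the 15 genes of the silencing machinery in the table these were the only members, against 1.8% of all genes, and 6 genes were at least 2-fold enriched in both vectors, against 12.9% of all genes, TNRC6B among them with log2 values of 2.56 and 2.38 on its most enriched probe. The members with other roles in RNA were ZNFX1, an RNA helicase of the antiviral response (23.3 and 14.4), the poly(A) polymerase TENT4A (8.53 and 8.82), the arginyl-tRNA synthetase RARS1 (9.91 and 8.34) and the mitochondrial ribosomal protein MRPL20 (9.96 and 12.3).

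Published targets of the miRNAs printed above were compared with all genes by the share that were members. The table held 26 genes of the miR-17 family list, of which 5 were members, DUSP2, TGFBR2, TXNIP, ZBTB4 and ZNFX1, and 15 were at least 2-fold enriched in both vectors. Over all genes with a symbol 143 of 7928 were members (1.8%), and 1025 (12.9%) were at least 2-fold enriched in both. The median log2 IP/T over the probes of the miR-17 family list was 1.72 and 1.67, against -0.13 and -0.14 over all probes with a symbol. Medians of the other lists are also taken over probes. In all lists a gene counted as a member or as at least 2-fold enriched if any of its probes was, even where its other probes were not. TXNIP, which binds thioredoxin and limits glucose uptake, had ratios of 11.2 and 10.3, and the methyl-CpG binding factor ZBTB4 had 15.5 and 11.7. DUSP2, a phosphatase of ERK kinases, was a member on both of its probes (11.8 and 10.4, 8.52 and 8.74).

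Let-7 targets numbered 19 in the table, with DICER1 and HIC2 as members and 11 genes at least 2-fold enriched in both vectors, and a median log2 IP/T of 1.14 and 1.49. HIC2, a transcriptional repressor, had total signals between log2 11.14 and 12.09 and ratios of 10.53 and 11.4. For miR-15 and miR-16, 14 genes were in the table, and CCNE1 and E2F7 were members. Of the 14 genes 6 were at least 2-fold enriched in both vectors, and the median was 0.99 and 1.00. The 5 miR-181 targets included CD69 as the only member and the only gene at least 2-fold enriched in both vectors, with a median of -0.04 and 0.14.

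The 24 published miR-155 targets in the table included SOCS1 and CEBPB as members, both of which were already enriched in cells with the empty vector. CEBPB, a leucine zipper transcription factor, had ratios of 10.004 and 10.2 at total signals between log2 12.52 and 12.96. Over the miR-155 list 10 genes were at least 2-fold enriched in both vectors, and the median log2 IP/T was 0.36 in EV cells and 1.29 in miR-155 cells. Some genes of that list had been picked by the study from these same samples, so its median is not independent evidence of a direction. WEE1, a kinase that holds cells before mitosis, and BACH1, a repressor of heme oxygenase, were on this list and came near the rule with log2 values of 2.77 and 2.53 in EV cells and 3.39 and 3.86 in miR-155 cells.

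Immediate early and other short-lived mRNAs had 22 genes in the table, of which BTG2, EGR1 and EGR2 were members and 12 were at least 2-fold enriched in both vectors, with a median log2 IP/T of 0.87 and 1.11. EGR1 and EGR2 are transcription factors that antigen receptor signalling induces within minutes. EGR1 had total signals of 6.58, 7.19, 5.88 and 5.51 and IP signals of 10.60, 10.96, 9.81 and 10.06 on the log2 scale, so both fractions were lower in miR-155-ST486 cells, where the total signal was detected in 1 of 2 labellings, and its ratios were 14.9 and 18.9. EGR2 had ratios of 19.3 and 13.8. PIM1 (2.99 and 2.56) and ZFP36 (2.92 and 4.28, log2) lay below the threshold in EV-ST486 cells. Several lists held 0 members, which for short lists is close to the 1.8% over all genes and is no result about them: the 16 glycolysis enzymes (median log2 IP/T -0.51 and -0.32), the 14 proteasome core subunits (-0.42 and -0.25) and the 80 cytosolic ribosomal proteins (-0.46 and -0.66). There were also 0 members among 52 histone genes, 140 solute carriers, 32 SOX, FOX and HOX genes, 24 chromatin and Polycomb genes and 9 genes of the KLF family, whose medians lay between -0.22 and 0.64, although CBX7, a Polycomb protein, came to log2 3.22 and 2.85.

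**Figure D3:**
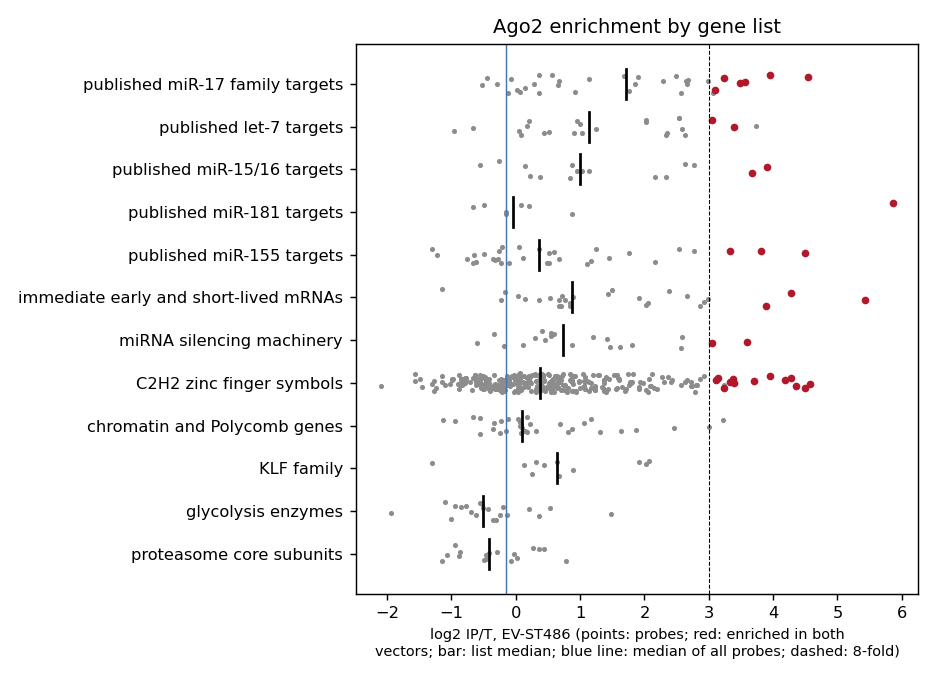
Log2 IP/T ratio in EV-ST486 cells (x axis) of the probes of 12 gene lists (rows), with probes enriched at least 8-fold in both vectors in red, the median of each list as a black bar, the median of all probes as a blue line and 8-fold as a dashed line. The lists of glycolysis enzymes and proteasome subunits hold no red point and have medians of -0.51 and -0.42, and the miR-17 family list has the highest median, 1.72.

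Zinc finger and related transcription factors were 20 genes with a median log2 IP/T of 3.51 and 3.46. Of 265 genes with a ZNF or related C2H2 symbol that the table held, 13 were members (4.91%, against 1.8% of all genes), and 73 were at least 2-fold enriched in both vectors (12.9% of all genes were). C2H2 zinc finger genes of the KRAB type encode repressors of which many silence transposable elements, and they lie in clusters of tandem copies. Within the cluster on chromosome 19 that runs from ZNF627 to ZNF791, between ACP5 and MAN2B1 in the RefSeq gene order, 24 genes are annotated. The table held 9 of them, and 5 of these were members. This cluster was picked after the values had been seen.

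In the order of that cluster ZNF823 had ratios of 23.9 and 14.7, ZNF439 18.2 and 15.3, ZNF700 20.4 and 18.6, ZNF136 10.49 and 10.4 and ZNF442 10.4 and 10.1. The 4 genes that were not members, ZNF627, ZNF20, ZNF625 and ZNF564, were all at least 2.43-fold enriched in both vectors. The median log2 IP/T of the 9 genes was 3.38 and 3.34, against 0.36 and 0.34 for the 256 other C2H2 genes, of which 8 were members. Tandem copies resemble each other in sequence, and whether a probe also binds the transcript of a neighbour was not tested. ZNF700 had log2 total signals between 8.998 and 9.39 and IP signals between 13.36 and 13.71, and ZNF439 had 8.93 to 9.24 and 13.02 to 13.28, both detected in all 8 channels.

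Other zinc finger members were ZNF124 (22.7 and 17.5), ZNF658 (19.4 and 13.5), ZNF121 (9.40 and 9.94), ZNF180 (10.1 and 8.50) and ZNF12 (8.65 and 8.87), and ZNF280A, which could only be bounded. ZNF706, a small zinc finger protein, had the second highest total signal of the members, with log2 values of 14.21, 14.18, 14.02 and 14.07 against IP values of 17.39, 17.30, 17.10 and 17.04, and ratios of 8.87 and 8.17. ZEB2, a repressor of E-cadherin (10.3 and 10.3), PLAG1, an oncogene of salivary gland tumours (12.4 and 9.73), MTF1, the sensor of heavy metals (9.48 and 10.6), and BCL11A, the repressor of fetal globin (8.57 in miR-155-ST486 cells, total signal detected there in 1 of 2 labellings), were the remaining factors of known function with a zinc finger. Transcription and chromatin proteins of other classes were MIER2 (15.7 and 14.99), the Mediator subunit MED19 (12.53 and 12.2), MIDEAS (13.6 and 10.4), TSC22D2 (12.3 and 10.2), PBX3 (10.53 and 11.1), MORF4L1 and CEBPB.

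Autophagy, endosome, Golgi and transport genes formed the largest group with a named function together with the zinc finger factors, 20 genes on 24 probes, with a median log2 IP/T of 4.01 and 3.67. ATG16L1, which directs the lipidation of LC3 (18.3 and 13.0), ATG9A, the lipid scramblase of the growing autophagosome (12.9 and 12.4), RUBCNL, a promoter of autophagosome maturation (10.7 and 10.47), PLEKHM1, which tethers autophagosomes to lysosomes (9.59 and 8.77), and FYCO1, which moves them along microtubules (10.7 and 10.4), act in autophagy. ZFYVE26, a protein of autophagic lysosome reformation, was enriched on both probes, 24.7-fold and 21.2-fold and 19.9-fold and 16.4-fold. Its brighter probe had log2 total signals between 9.95 and 10.31 and IP signals between 14.53 and 14.83. RAB12, a GTPase of recycling endosomes, had ratios of 26.5 in EV-ST486 cells on the probe with 1 detected total labelling there, and at least 1.97-fold in miR-155-ST486 cells.

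The golgin GOLGA1 was enriched on both probes (35.1 and 15.97, 27.5 and 19.9), as was MTMR9, a catalytically inactive myotubularin (20.1 and 16.8, 9.07 and 8.36), whose probes differed by 1.15 and 1.00 in log2. PEX13, part of the import machinery of peroxisomes, had the highest mean ratio of the group after GPR137B, 29.2 and 25.1. The ESCRT-I subunit VPS37C (17.0 and 14.3), the phosphoinositide phosphatase INPP5F (18.7 and 12.05), the dynein light chain DYNLT1 (13.5 and 16.2) and the dynactin subunit DCTN4 (12.6 and 9.44) followed. RUFY2 (15.2 and 9.98), PLEKHA3 (11.3 and 11.3), DNAJC27 (11.4 and 10.9), TVP23B (10.54 and 9.79) and RUSC2 (8.15 and 8.33) closed the group.

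Genes of the ubiquitin system were 9 on 10 probes, with a median log2 IP/T of 3.53 and 3.35. The ligase MYLIP, which degrades the LDL receptor, was enriched on both of its probes (13.9 and 12.2, 14.9 and 10.3). MARCHF9 (11.2 and 11.7), MARCHF3 (10.4 and 9.33), SIAH1 (9.17 and 10.1) and FBXO10, the F-box protein that recognizes BCL2 (22.6 and 8.16), are ligases or their subunits, UBE2W is a conjugating enzyme (8.89 and 10.3), USP12 and USP31 are deubiquitinases (10.6 and 11.5, 11.9 and 9.20), and SPATA2 brings the deubiquitinase CYLD to its complex (12.4 and 10.2). Kinases, phosphatases and second messenger enzymes numbered 14 on 16 probes. PKN2, a serine and threonine kinase, had 2 enriched probes (26.1 and 30.0, 12.9 and 15.7). The SRC family kinase YES1 (15.5 and 13.0), SIK1, a kinase of the CREB pathway (16.4 and 9.03), the catalytic subunit PPP2CB (10.9 and 13.2) with the phosphatase inhibitor PPP1R2 (10.1 and 8.42), the cAMP phosphodiesterase PDE4A (8.97 and 9.33) and the circadian repressor CRY2 (11.4 and 12.6) were in the same group. ARHGAP12 (23.0 and 16.4), IPPK, which makes inositol hexakisphosphate (17.98 and 13.7), RHEBL1 (14.1 and 16.4), ARRDC3 (12.6 and 12.7) and RGL1 (10.9 and 12.3) completed it with DUSP2 and TXNIP.

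Cytoskeleton and polarity genes were 7: CFL2, the actin-binding protein TWF1 (12.1 and 17.6), LRRC1 (14.1 and 18.4), PARD6B (12.51 and 12.1), LIN7B (11.4 and 10.1), EPB41L4B (9.40 and 10.2) and STRIP2. TWF1, which like CFL2 acts on actin monomers and filament ends, had total signals of 10.98, 10.63, 10.39 and 10.43 and IP signals of 14.39, 14.41, 14.60 and 14.49 on the log2 scale. The 23 genes of other or little described function included, besides NHLRC3, FAM222B and C2orf69, CDC37L1, a co-chaperone of HSP90 (28.6 and 24.7), MMD (25.3 and 26.6), FAM135A (26.0 and 22.6), CNEP1R1, which regulates the lipin phosphatase (23.2 and 22.1), YAE1 (20.9 and 24.1) and the mitochondrial protein CHCHD10. Also in this group were C2orf42, TMCC1 on 2 probes, GPCPD1, MANBAL, CCDC71L, PXYLP1, NHLRC2, DPH3, TMEM64, CBY1, KIAA1191, DPY19L4, ABHD12 and ZCCHC14, with log2 IP/T down to 3.05 in EV-ST486 cells.

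A further 32 member probes had no gene symbol and are known by the accession or cluster name that the array gives. Their median log2 IP/T was 3.70 in EV cells and 3.38 in miR-155 cells, and the median log2 total signal of 7.80 was lower than the 8.33 of all members. AK131404 had ratios of 30.9 and 27.5, with total signals between log2 11.47 and 11.96 and IP signals between 16.25 and 16.71 and detection in all 8 channels. AL536879 (33.7 and 29.0), AK129956 (31.8 and 23.2) and THC2672869 (43.8 and 18.3) had log2 total signals of at most 7.53 in any channel.

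The total signal of most members was low while their IP signal was high. Because total signal is the denominator of the ratio that chose them, this is a description and not a separate finding. Their median log2 total signal was 8.33 in EV cells and 8.43 in miR-155 cells, against 9.90 and 9.91 for all probes, and the median log2 IP signal was 12.2 in both vectors, against 9.91 and 9.90. When all probes were ranked by total signal in EV-ST486 cells and split into 4 equal bins, 95 members fell in the lowest bin, 44 and 33 in the middle bins and 16 in the highest. By IP signal the same split gave 8, 26, 47 and 107. A signal also depends on the probe, so these are ranks of probes and not of transcript amounts.

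The 16 members in the highest bin of total signal were MORF4L1, ZNF706, CCNE1, HERPUD1, CHCHD10, MRPL20, TUSC2, CEBPB, DYNLT1, FKBP11, RARS1, RUBCNL, PDE4A, CHAC1, PPP2CB and the transcript BC064430. MORF4L1, a chromodomain protein of histone acetyltransferase complexes, had the highest, with log2 total signals of 14.46, 13.94, 14.60 and 14.53 and IP signals of 17.47, 17.74, 18.0002 and 17.82, ratios of 10.6 and 10.2. CHCHD10 had total signals of 13.63, 13.68, 13.69 and 13.85 and IP signals of 17.57, 16.81, 17.56 and 17.41, ratios of 11.6 and 13.1. As in all members, every IP channel of both stood above all total channels. The ratio of CHCHD10 in EV-ST486 cells varied from 9.03 to 14.9 with the orientation.

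Detection differed between the fractions. All 188 members were detected in all 4 IP channels, whereas in the total fraction 180 were detected in EV Cy3, 127 in EV Cy5, 179 in miR-155 Cy3 and 171 in miR-155 Cy5. In EV-ST486 cells the total signal of 53 members was detected in 1 of 2 labellings and that of 8 in 0. Both total labellings were detected for 127 of the 188 members in EV-ST486 and for 171 in miR-155-ST486 cells. Over all probes these shares were 93.0% and 99.7%. All 8 channels detected 126 members (67.0%), fewer than the 83.5% among all probes. These 126 had a median log2 IP/T of 3.57 and 3.48 and a median log2 total signal of 9.33 and 9.46.

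**Figure D4:**
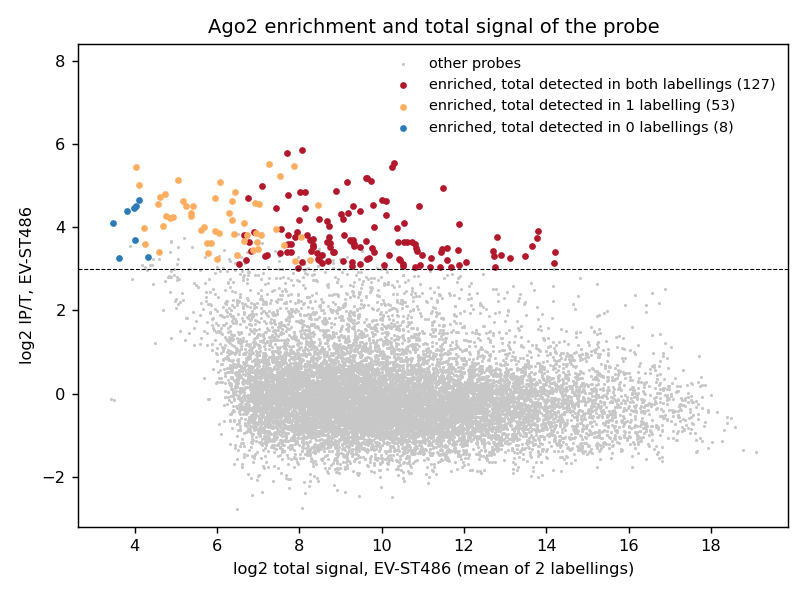
Log2 IP/T ratio (y axis) against log2 total signal (x axis) in EV-ST486 cells, means of 2 labellings, for all probes in grey and the 188 enriched probes coloured by how many labellings of their total signal were detected (127 in both, 53 in 1, 8 in 0). The enriched probes with an undetected labelling lie at the low end of total signal, and members with both labellings detected reach a log2 total signal of 14.2.

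The ratios of most members differed little between cells with and without ectopic miR-155. The median log2 miR-155/EV ratio of IP/T was -0.13, with a range from -1.47 to 0.93, against -0.02 over all probes. A ratio of at least 2 was reached by 0 members and by 148 of all probes (1.02%), and a ratio at least 2-fold lower in miR-155-ST486 cells by 6 members and by 31 of all probes (0.214%). The choice of members limits how far a ratio can move, since a probe that left the 8-fold range in either vector is no member. In both orientations the ratio was above 1 for 36 members and below 1 for 82, and it had mixed sign for 70. The same shares over all probes were not counted, so these numbers show no direction particular to the members. The sign of the median turned with loess normalization after normexp, to 0.88, or to 0.30 with high local backgrounds replaced.

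The 6 members with lower ratios in miR-155-ST486 cells were FBXO10, THC2672869, BC060766, one of the GOLGA1 probes, TAGAP and AB028976. FBXO10 had log2 total signals of 5.67, 4.82, 6.36 and 6.56 and IP signals of 9.73, 9.76, 9.37 and 9.61, so its total signals moved and its IP signals hardly did. TAGAP had total signals of 5.83, 4.92, 6.25 and 6.63 and IP signals of 9.58, 9.82, 9.66 and 9.62. The dimmer GOLGA1 probe had 5.47, 4.63, 5.69 and 6.10 and 10.003, 10.36, 9.86 and 9.92, and its log2 miR-155/EV ratio of -1.14 stood beside -0.47 on the brighter probe, which was detected in all 8 channels. In all 6 the EV total signal in Cy5 was below detection and the lowest of the 4 total channels. The lower ratio came to at least 2-fold in both orientations for 0 of them: in FBXO10 it was -2.10 and -0.85, in THC2672869 -1.85 and -0.67 and in BC060766 -1.80 and -0.61. Among the 126 members detected in all 8 channels the log2 ratio lay between -0.50 and 0.93 with a median of -0.06, and among the other 62 the median was -0.43. The part of the undetected channel in these ratios was not tested.

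THC2672869 had log2 total signals of 4.40, 3.65, 5.22 and 5.70 and IP signals of 9.32, 9.63, 9.52 and 9.79, and BC060766 had 4.56, 3.64, 4.97 and 5.24 and 8.96, 9.29, 8.76 and 9.08. Both belong to the dimmest total signals among the members. At the other end AK125829 had total signals of 10.96, 11.37, 10.71 and 11.15 and IP signals of 14.12, 14.31, 14.79 and 15.04, a log2 miR-155/EV ratio of 0.93 that was 0.89 and 0.98 in the orientations. It was the only member at least 1.5-fold higher in both orientations. On their member probes TWF1 (0.54), CDKN1B (0.50) and DPH3, an enzyme subunit of diphthamide synthesis (0.53), were also higher in both orientations. Probes of TWF1 and CDKN1B outside the deposited log2 table went the other way, with IP/T ratios of 24.8 and 10.3, and 19.7 and 10.9. The EV total labellings of these probes differed over 2-fold. DPH3 had total signals of 11.51, 11.84, 11.30 and 11.54 and IP signals of 14.62, 14.84, 14.87 and 15.13. Its orientations gave ratios of 6.84 and 10.01 in EV cells and 10.06 and 14.2 in miR-155 cells, so the ranges nearly touched. CDKN1B had total signals of 9.63, 10.001, 9.18 and 9.56 and IP signals of 13.59, 14.06, 13.82 and 13.93, and its ratios of 12.04 and 21.5 in EV-ST486 overlapped with those of 19.2 and 26.9 in miR-155-ST486 cells. In S1PR1 the log2 IP signal was higher in miR-155-ST486 cells by 1.60, the largest IP difference of the members.

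In the total fraction 18 members had at least 1.5-fold more signal in miR-155-ST486 cells, which 5.01% of all probes had, and 1 member had less (3.93% of all probes). At 2-fold these were 6 (0.567%) and 1 (0.332%). The 6 were THC2672869, FBXO10, SIK1, TAGAP, RGS16 and BC060766, of which RGS16 was detected in all 8 channels and the others had a total labelling below detection in EV-ST486 cells. RGS16 had log2 total signals of 8.08 and 8.04 in EV cells and 9.22 and 9.02 in miR-155 cells and IP signals of 11.38 and 11.08, and 12.23 and 12.08, so both fractions were higher by about the same step and the ratio hardly moved. The 1 member with less was EGR1, with a log2 difference of -1.19 and 1 of 2 total labellings detected in miR-155-ST486 cells. The median log2 difference in total signal was 0.13 for the members and 0.01 for all probes, and in IP signal 0.006 for both. FBXO10, THC2672869, BC060766 and TAGAP were among both the members with lower IP/T ratios in miR-155-ST486 cells and those with more total signal. Total signal is the denominator of the ratio, so this overlap is no separate finding.

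Some member genes had several probes in the table, and these were compared. For 13 genes 2 probes passed the rule: C2orf69, CFL2, DUSP2, GBP3, GOLGA1, MTMR9, MYLIP, NABP1, PKN2, RAB12, SOCS1, TMCC1 and ZFYVE26. Their log2 ratios differed by a median of 0.35 in EV cells and 0.34 in miR-155 cells, from 0.09 for TMCC1 to 1.15 for MTMR9 in EV-ST486 cells. Because both probes of a pair had to pass the rule, these differences cannot show how far enrichment belongs to the gene. For 108 member genes the table held a single probe, and 23 genes had 26 further probes that were not members. Of these 26 probes 18 were at least 2-fold enriched in both vectors, which 10.7% of all probes were, and 14 at least 4-fold.

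The 3 genes whose other probe differed most were PKN2, SIK1 and TUSC2. The further PKN2 probe had log2 IP/T of -0.99 and -1.89, against 4.70 and 4.90 on its most enriched probe, and a log2 total signal of 16.8 in EV-ST486 cells, where the other had 5.94. SIK1 had -1.08 and -1.32 on its other probe and 4.04 and 3.17 on the member, and TUSC2 had -0.65 on its other probe in both vectors and 3.27 and 3.68 on the member. In all 3 the array gives the same RefSeq accession for the depleted and the enriched probe, and the depleted probes were detected in all 8 channels. Which parts of the transcripts these probes bind was not examined here. MORF4L1 and PPP1R2 also had further probes well below the rule. Their log2 IP/T was 1.68 and 2.01, and 1.72 and 2.08, for MORF4L1, and 0.94 and 0.64, and 1.07 and 0.54, for PPP1R2. In the other direction KIAA1191 (2.92 and 2.98), ZNF706 (2.78 and 2.71) and RGS16 (2.71 and 2.84, log2) were close to the rule on their other probes.

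**Figure D5:**
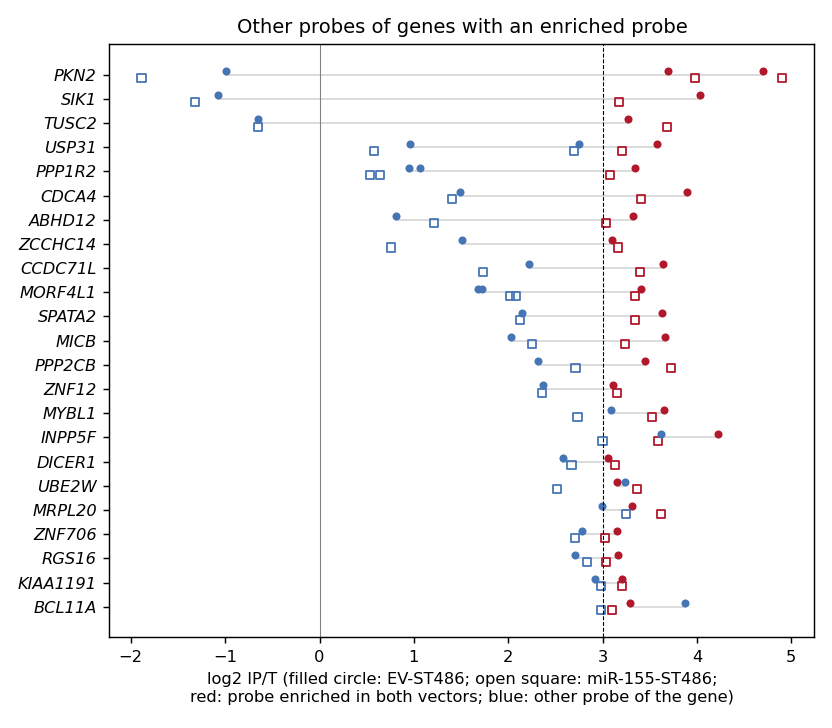
Log2 IP/T ratio (x axis) of all probes of the 23 genes that have both an enriched probe (red) and a further probe (blue), filled circles for EV-ST486 and open squares for miR-155-ST486 cells, ordered by the gap between the probes. The further probes of PKN2, SIK1 and TUSC2 lie below 0, and those of the genes at the bottom, such as KIAA1191, lie next to the dashed 8-fold line.

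The threshold cuts through a continuous range. Just inside it were ENST00000338146 with ratios of 9.51 and 8.04, AK093078 with 8.21 and 8.13 and RUSC2 with 8.15 and 8.33. Just outside it were a further INPP5F probe with 12.3 and 7.99 and a further MRPL20 probe with 7.97 and 9.51. INPP5F and MRPL20 are therefore members on one probe and missed the rule by less than the difference between labellings on the other.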

How the data were processed

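The authors deposited scanner intensity files of the 4 two-colour Agilent arrays from Feature Extraction 10.5.1.1, in which background was subtracted and the dyes were normalized per the file headers. Each array is present once under each of its channels with identical content. They also deposited log2 values of 14453 probes, made in GeneSpring with quantile normalization of all 8 channels, followed by removal of probes that were undetected in most channels or differed over 2-fold between labellings. The membership and all values use this log2 table, except detection, lower bounds, the normexp alternatives and the probes outside the table, which use the scanner files. Averaging of spots and quantile normalization of the scanner signals gave 99.9% of the deposited values within 0.05. Column medians of the log2 table lay between 9.89 and 9.91.

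Log2 IP/T is the mean of the IP labellings minus the mean of the total labellings. Symbols came from RefSeq accessions in the array annotation, found for 10409 probes of the table. For genes only names and order were taken from RefSeq, since its build is not that of the array annotation, and for miRNAs the mature sequences and the position of miR-155 (GRCh38.p14). Detection flags came from the scanner files. Computation used limma 3.58.1 in R 4.3.3, and pandas 2.3.3 with numpy 2.4.6 in Python 3.11.15, and was tested on simulated data.

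The members and lists were chosen with earlier results of these data known, the target lists were compiled from general knowledge, and the role groups were made after the values were seen. All members could be named. Channel values are given for the 10 highest mean ratios, the 5 highest total signals and the 5 highest and 5 lowest miR-155/EV ratios, and for genes with 2 member probes mostly as ratios. Values given for EGR1, RGS16 and DICER1 in each channel were added after they were seen. Pairs of ratios are in the order EV-ST486, miR-155-ST486. Alternatives were normexp with an offset of 50 on the median signal (the files hold no mean signal), signals without quantile normalization, detection in all 8 channels, single orientations and other thresholds. Among the genes just outside the threshold and among the B cell markers, 1 each is not reported here.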

Additional observations from a re-analysis of the deposited data

How the results depend on the processing

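The count of 188 probes stayed within 1.5 times under the signals rebuilt from the scanner files, without quantile normalization, with detection in all 8 channels (126), with 8-fold in each orientation (141), with 1 probe per gene and with each orientation alone, which gave between 165 and 209. It was 575 at a 4-fold and 45 at a 16-fold threshold. With normexp it was 19 after quantile and 22 after loess and Aquantile normalization, and 62 and 67 when 19 spots with a high local background were given the median of their channel, settings chosen after seeing the data. In these 4 settings, in that order, the median log2 IP/T of the members was 1.26, 0.81, 2.68 and 2.55 in EV-ST486 and 1.34, 1.78, 2.69 and 2.93 in miR-155-ST486 cells, the median log2 miR-155/EV ratio was -0.021, 0.88, -0.069 and 0.30, and the median total signal relative to all probes was -0.31, -0.054, -0.86 and -0.79 in EV-ST486 and -0.33, -0.70, -0.90 and -1.11 in miR-155-ST486 cells. The cause of these shifts was not tested. With detection in all 8 channels the EV median ratio was 3.57, the miR-155/EV ratio -0.062 and the relative total signal -1.11 and -0.98. With 8-fold in each orientation the median ratios were 3.89 and 3.78 and the EV relative total signal -1.44, and with 1 probe per gene 3.66 and -1.45 in EV-ST486 cells. Each orientation alone gave EV median ratios of 3.75 and 3.78 and relative total signals of -1.52 and -1.48. No paired analysis was possible because no value comes from a test and the numbers of the labellings mark dyes of the same RNA. With 4 arrays and 1 RNA sample per condition, the number of arrays limits the precision, and for members with an undetected total signal the ratio rests on a signal not above background.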

Other observations

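The 26547 array probes outside the deposited log2 table were examined in values rebuilt from the scanner files by the same steps, and 58 of them were at least 8-fold enriched in both vectors and detected in all 4 IP channels. In each of these 58 probes the labellings of a sample differed by more than 2-fold, in the EV total fraction for 41, in the miR-155 total fraction for 19, in the EV IP fraction for 7 and in the miR-155 IP fraction for 1. They named 36 genes, of which 10 were already members, CDKN1B, TWF1, BOD1, ZNF700, CNEP1R1, PLEKHA3, FAM135A and TAGAP among them. TAGAP had 2 further probes, with ratios of 69.7 and 26.2, and 43.2 and 17.2 (EV-ST486 and miR-155-ST486 cells). Immune genes of this kind that were not members were CD80, a costimulatory ligand of B cells (31.5 and 12.53), and SOCS5, a suppressor of cytokine signalling (19.1 and 11.5). ZNF44, which belongs to the run of zinc finger genes described above, had 20.5 and 8.91. The total signal of 11 of the 58 was detected in 0 of 4 labellings, ENPP5 among them.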
